A study of Mus musculus with 8 samples.

Results

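Heme synthesis and cellular iron supply were described in newborn mouse liver through 9 genes: the pathway enzymes Alas2, Alad, Uros, Urod, Cpox, Ppox and Fech, the mitochondrial iron importer Slc25a37 (mitoferrin 1) and the transferrin receptor Tfrc. They were taken by symbol, with every probe set that the array annotation pairs with exactly 1 of these symbols. This gave 24 probe sets of the 45101 in the table, 21 of them open to testing and 3 array controls made from mouse Tfrc. One group was Mfp2 -/-, lacking the peroxisomal enzyme Mfp2 (gene Hsd17b4), and the other was WT, with 4 livers each, all taken at an age of 2 days. Each liver was hybridised to 1 Affymetrix array, and values are the authors' RMA values on the log2 scale, where a difference of 1 is a doubling. The sources used here give no strain, litter or sex, and do not say how the knockout was made or which cells lack the gene. The design text counts 4 mice in each group, so livers were taken as separate animals.

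Heme is built in steps shared between the mitochondrion and the cytosol. The first step joins glycine and succinyl-CoA, and 2 genes encode its enzyme: Alas1 in all cells, with high output in hepatocytes, and Alas2 in red cell precursors. The last step, run by ferrochelatase, puts iron into protoporphyrin. The liver of a newborn mouse still makes blood, so red cell precursors, which need heme for hemoglobin, lie beside hepatocytes, which need it for cytochromes. Iron reaches the precursors through the transferrin receptor and enters their mitochondria through mitoferrin 1.

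Promoter sequences are shown first for the start sites of these genes that hold a GATA word, since erythroid genes are known targets of the factor GATA1, with Alas1 for contrast. RefSeq start sites on mouse build GRCm38.p6 were found for 7 of the 9 genes, 10 sites in all. The words searched on both strands in the 250 bases before each start were AGATAA, its form AGATAG, then TGATAA, and its form TGATAG. 3 of the 10 sites held at least 1, those of Alas2, Cpox and the second site of Uros, against 26.5% of all 32851 start sites in the table, so the share among these genes is near that of all genes. The word CCGCCC stood before 6 of the 10 sites and before 32.7% of all, while CCACACC and TGACTCA stood before 0 of the 10, against 6.52% and 4.46% of all. The windows of the 2 Alad sites overlap, and the CCGCCC words before its first start were counted again before its second. The windows of the 2 Tfrc sites also overlap, so the 10 sites are not all separate. The loop letters of an iron responsive element, CAGTGN, were found in the first 50 bases after 1 of the 10 starts, that of Alad, against 7.08% of all. Bases farther into the transcripts were not searched, so the search cannot say which of these genes carry such an element. Capitals mark the GATA words in the 120 bases before each start, read on the gene's own strand, so that each appears as its reverse complement. In Cpox the words AGATAG (91 to 86 bases before the start) and TGATAA (86 to 81) share 1 base. A further word before the second Uros start, AGATAG, lies 205 to 200 bases away, outside the stretch shown. The Slc25a28 start, of the mitoferrin outside the red cell lineage, also held a word, AGATAG, 112 to 107 bases before it, so Alas1 does not stand for both counterparts. The windows are chrX:150547297-150547416 (plus strand) for Alas2, chr16:58670088-58670207 (plus strand) for Cpox, chr7:133702501-133702620 (minus strand) for the second start of Uros and chr9:106247955-106248074 (minus strand) for Alas1.
Alas2: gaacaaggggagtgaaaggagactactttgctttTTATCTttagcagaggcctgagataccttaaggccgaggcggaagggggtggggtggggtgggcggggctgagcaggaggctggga
Cpox: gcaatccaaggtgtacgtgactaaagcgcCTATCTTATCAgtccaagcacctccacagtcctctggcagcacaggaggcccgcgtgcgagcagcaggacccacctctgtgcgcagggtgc
Uros: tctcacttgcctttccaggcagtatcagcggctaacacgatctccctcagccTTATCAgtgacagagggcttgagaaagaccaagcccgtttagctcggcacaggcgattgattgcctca
Alas1: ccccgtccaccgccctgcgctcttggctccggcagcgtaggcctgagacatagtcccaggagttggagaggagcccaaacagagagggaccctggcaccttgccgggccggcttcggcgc
A match is a description of letters and was not tested for binding.

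Each array matched its label at the targeted gene. Hsd17b4 lay between 3.25 and 4.29 in knockout livers and between 8.15 and 8.97 in wild type livers. Correlations between arrays ran from 0.983 to 0.994 within groups and from 0.975 to 0.989 across them. Xist was high in knockout 1, knockout 2 and wild type 3, so sex is not balanced over the groups. The median difference over all 18193 genes was 0.01, close to 0.

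Transcripts of all 9 genes were lower in knockout livers, by 1.501-fold to 2.07-fold, and in each gene the 4 knockout values lay below the 4 wild type values. The brightest probe set, by its mean over the 8 livers, stands for each gene. Among all genes 46.7% had a lower mean in the knockout and 5.02% had groups that did not overlap in that direction. The 9 genes and the gene lists below were chosen with earlier results of these data known. Their values also come from the same 8 livers, so they are not separate pieces of evidence. Shares of all genes are given for scale and do not test the 9 genes or the lists. Past a limma adjusted p of 0.05 over all 45037 tested probe sets were 2 of the 9, Cpox and Slc25a37, both lower, against 0.841% of all genes lower and 1.15% in either direction. The other 7 did not pass, with adjusted p between 0.0580 and 0.376. The median difference of the 9 genes was -0.66 on the log2 scale, which leaves 63.3% of the wild type level. The count of 2 was 0 after quantile normalization was run again, 4 with the arrays centred on their medians, 4 without knockout 2 and 8 with array weights. It was 1 without knockout 1 or wild type 2, and 0 without any of the other 5 livers. At an unadjusted limma p under 0.05 all 9 were lower, against 8.18% of all genes. An exact two-sided permutation test over the 8 livers gave an unadjusted p = 0.0286 for each of the 9, which is the smallest p that 4 against 4 allows. Every gene whose groups do not overlap has this p, 5.02% of all genes lower and 3.59% higher. It restates the lack of overlap and is no separate evidence.

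**Figure D1:**
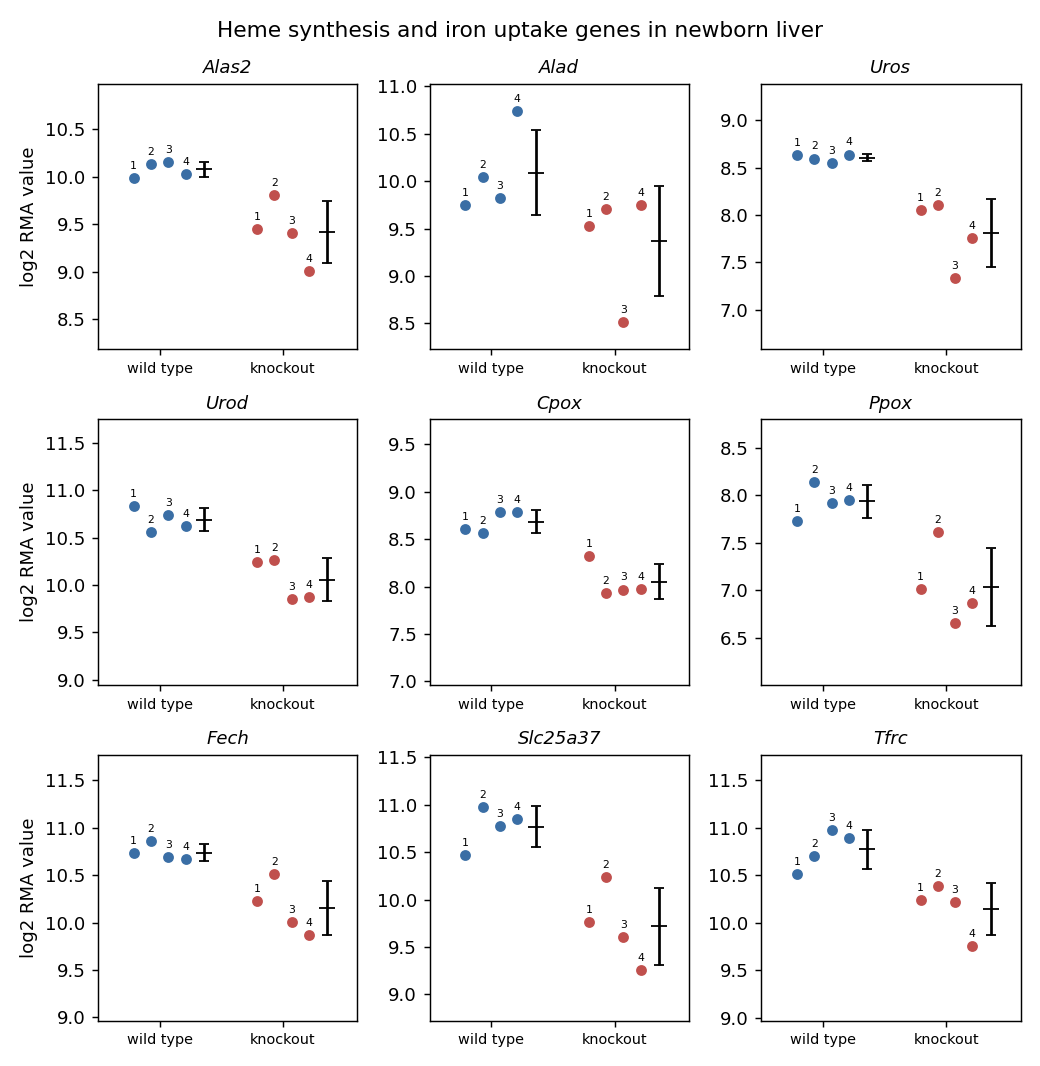
Log2 RMA value (y axis, each panel spanning the same number of log2 units) of the 9 genes in wild type (blue) and knockout (red) livers. Points are single livers with their replicate number, and the black mark and bar give the mean and SD of 4 livers. In every panel the lowest wild type point lies above the highest knockout point, with the smallest gap in Alad, where wild type 1 is at 9.75 and knockout 4 at 9.74.

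Alas2, the erythroid enzyme of the first step, had nearly equal values in wild type livers, 9.99, 10.14, 10.16 and 10.03 in replicates 1 to 4. The knockout livers were at 9.45, 9.81, 9.41 and 9.01. Knockout 2 came closest to the wild type livers and knockout 4 lay farthest below. The means were 9.42 ± 0.33 (SD, n = 4) and 10.08 ± 0.08, a difference of -0.66 ± 0.15 (SE) with a limma adjusted p of 0.0903, so the call was not made. Since Alas2 lies on the X chromosome, the fit with the mean of Y-linked genes as a covariate bears on it, and there the difference was -0.71 with an adjusted p of 0.0583.

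Alas1, the enzyme of the same step outside the red cell lineage, had a higher mean in the knockout. Its values were 8.46, 8.13, 8.39 and 8.26 in knockout livers and 7.58, 8.33, 7.70 and 7.87 in wild type livers. The groups overlapped through wild type 2. The difference was 0.44 ± 0.16 (SE), with a limma adjusted p of 0.294. The log2 difference of Alas2 minus Alas1 within each liver, a measure chosen after their values were seen, lay between 0.75 and 1.67 in knockout livers and between 1.81 and 2.46 in wild type livers. Its change was -1.10, given with no test.

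Alad, which joins 2 molecules of aminolevulinic acid into a pyrrole, varied most among livers of 1 group. Knockout values were 9.53, 9.71, 8.51 and 9.74, and wild type values were 9.75, 10.04, 9.83 and 10.74. Knockout 3 lay about 1 unit below the other knockout livers, and wild type 4 lay above the other wild type livers. The difference was -0.72 ± 0.30 (SE), with a limma adjusted p of 0.376. It was -0.43 without knockout 3 and -0.50 without wild type 4. The dimmer second probe set of Alad had the same order of extremes, lowest in knockout 3 at 5.16 and highest in wild type 4 at 7.75, and its groups overlapped.

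Uros, which closes the ring of uroporphyrinogen III, was at 8.05, 8.11, 7.33 and 7.75 in knockout livers. In wild type livers it was nearly constant, at 8.63, 8.60, 8.55 and 8.64. The difference was -0.79 ± 0.16 (SE), with a limma adjusted p of 0.0589. The second probe set of Uros, a dimmer one, fell by 0.60 ± 0.10 with a limma adjusted p of 0.0383, from 5.06 ± 0.08 (SD, n = 4) to 4.46 ± 0.14.

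Urod, which trims the side chains of uroporphyrinogen, was at 10.24, 10.26, 9.86 and 9.87 in knockout livers and 10.84, 10.56, 10.74 and 10.62 in wild type livers. Knockout 3 and 4 were the lowest. The difference was -0.63 ± 0.13 (SE), with a limma adjusted p of 0.0580. By the manufacturer's naming this probe set may match further transcripts. The other probe set of Urod differed by -0.57 ± 0.15 (adjusted p 0.130), and its groups did not overlap either.

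Cpox, the mitochondrial coproporphyrinogen oxidase, fell in the knockout. Its values were 8.33, 7.94, 7.97 and 7.98 in knockout livers and 8.60, 8.56, 8.78 and 8.79 in wild type livers. Knockout 1 stood above the other 3 knockout livers, which differed by 0.04 at most, and still lay below all wild type livers. The means were 8.05 ± 0.18 (SD, n = 4) and 8.68 ± 0.12, a 1.55-fold lower level, with a difference of -0.63 ± 0.11 (SE) and a limma adjusted p of 0.0454. The call was kept without knockout 1 or wild type 2, and was lost without any other single liver, at adjusted p of 0.0713 to 0.164. A second probe set of Cpox had the larger difference, -0.94 ± 0.19 with an adjusted p of 0.0586. The third was dim, and its groups overlapped. In it replicates 3 and 4 of both genotypes lay between 4.35 and 5.33 and replicates 1 and 2 between 3.14 and 3.58.

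Ppox, which oxidises protoporphyrinogen, was at 7.01, 7.62, 6.66 and 6.87 in knockout livers and 7.73, 8.15, 7.92 and 7.96 in wild type livers. Knockout 2 was again the closest to the wild type range. The difference of -0.90 ± 0.19 (SE), a 1.87-fold lower level, was the second largest of the 9, with a limma adjusted p of 0.0689. The other probe sets of Ppox did not part the groups. One differed by -0.30 ± 0.22, and one, with a mean of 2.53 in each group and below the median of every array (3.68 to 3.73), was not shown to be above background.

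Fech, the ferrochelatase, was at 10.23, 10.51, 10.003 and 9.87 in knockout livers and 10.73, 10.86, 10.69 and 10.67 in wild type livers. Knockout 2 was closest to the wild type livers and knockout 4 lowest. The difference was -0.59 ± 0.14 (SE), the smallest of the 9, with a limma adjusted p of 0.0966. By the manufacturer's naming this probe set of Fech may also match further transcripts. Of its 4 probe sets, 3 were bright and did not overlap between groups. One of these fell by 0.81 ± 0.12, from 9.53 ± 0.07 (SD, n = 4) to 8.72 ± 0.22, with a limma adjusted p of 0.0278. The fourth lay below the median of every array, at 2.44 ± 0.10 and 2.32 ± 0.10, and was the only one of the 21 tested probe sets with a higher mean in the knockout.

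Slc25a37 had the largest difference of the 9 genes and fell in the knockout. The knockout livers were at 9.77, 10.24, 9.60 and 9.26 and the wild type livers at 10.47, 10.98, 10.78 and 10.85. Knockout 4 was the lowest, and knockout 2 lay 0.23 below the lowest wild type liver. The means were 9.72 ± 0.41 (SD, n = 4) and 10.77 ± 0.22, a 2.07-fold lower level, with a difference of -1.05 ± 0.20 (SE) and a limma adjusted p of 0.0480. The call was kept without knockout 2 and lost without any other single liver, at adjusted p of 0.0581 to 0.164. It rests on 1 probe set.

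The other mitoferrin, Slc25a28, which serves tissues outside the red cell lineage, was not lower. It was at 6.40, 6.08, 6.31 and 5.98 in knockout livers and 5.91, 5.95, 5.91 and 5.81 in wild type livers, with all knockout values above all wild type values, an order seen in 3.59% of all genes. The difference was 0.30 ± 0.11 (SE), with a limma adjusted p of 0.306. Slc25a37 minus Slc25a28 within each liver lay between 3.28 and 4.16 in knockout and between 4.56 and 5.05 in wild type livers. That change of -1.35 was likewise chosen after the values were seen and has no test.

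Tfrc, which brings in transferrin-bound iron and is the bright marker of dividing red cell precursors, was at 10.24, 10.39, 10.22 and 9.75 in knockout livers and 10.52, 10.71, 10.98 and 10.89 in wild type livers. Knockout 4 was the lowest. The difference was -0.62 ± 0.15 (SE), with a limma adjusted p of 0.112. Its other 2 tested probe sets differed by -0.76 ± 0.18 and -0.79 ± 0.21, with adjusted p of 0.106 and 0.146. The 3 array controls from the 5' end, the middle and the 3' end of Tfrc, which were left out of the fit, differed by -0.88, -0.86 and -0.67, each with groups that did not overlap. The 3' minus 5' control value, a sign of RNA quality, was 1.63 ± 0.10 (SD, n = 4) for wild type and 1.84 ± 0.09 for knockout, without overlap, with an exact permutation p = 0.0286. For the actin and Gapdh controls the same value overlapped between groups, with exact permutation p = 0.343 and 0.886. The part of RNA quality in the Tfrc difference was not tested.

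Over all probe sets of the 9 genes, 20 of 21 tested had lower means in the knockout and 16 did not overlap, an order that 3.81% of all probe sets had. Of the 21, 4 passed, all lower, against 0.564% of all probe sets lower and 0.762% in either direction. They belong to Uros, Cpox, Fech and Slc25a37. The count of 4 was 7 without knockout 2, 2 without knockout 1, 3 without wild type 2, and 0 without any other single liver. Over all genes 5 to 89 passed in these last fits. For Uros and Fech the probe set that passed was not the brightest of the gene. Of the 5 probe sets with overlapping groups, 2 lay below the median of every array.

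**Figure D2:**
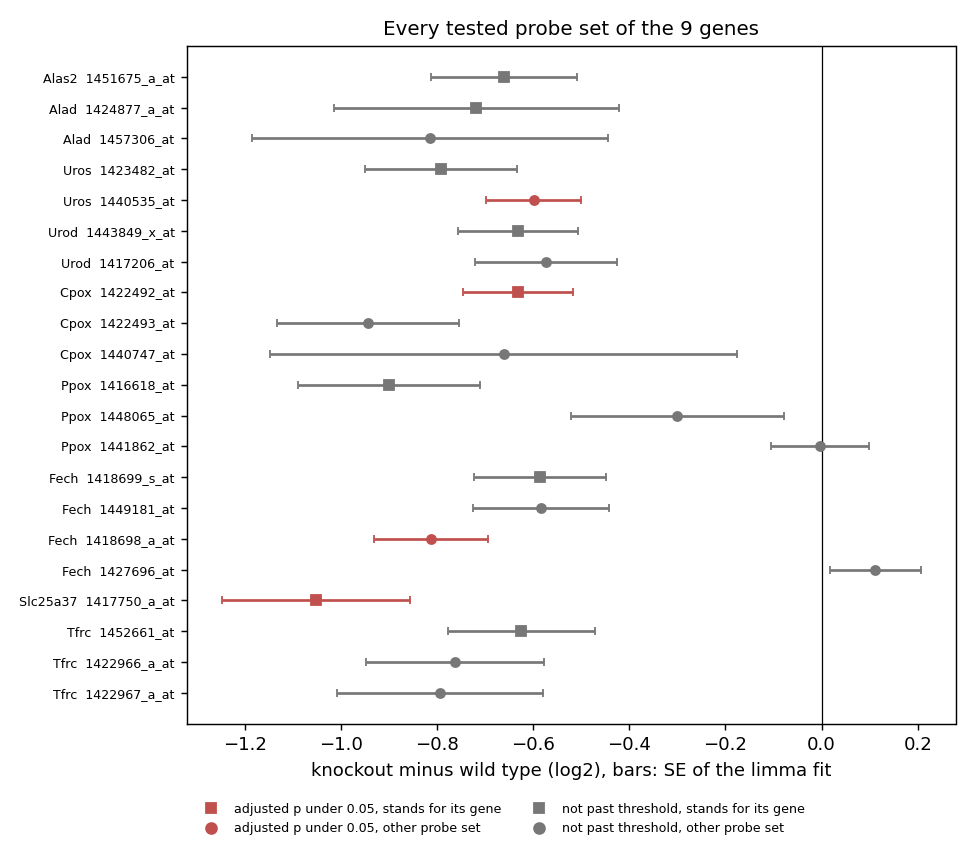
Knockout minus wild type difference (x axis, log2) of the 21 tested probe sets, ordered by gene along the pathway (y axis), with SE bars of the limma fit. Red marks the 4 probe sets past the adjusted p of 0.05, squares the probe set that stands for its gene, and all points but that of the dimmest Fech probe set lie below 0.

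The lowest knockout liver differed between genes. Knockout 3 was the lowest of all 8 livers in 4 genes, knockout 4 in 4 and knockout 2 in 1, Cpox. In Alad knockout 4 was the highest of the knockout livers, and in Cpox knockout 1 was. The mean of the 9 genes was 9.20, 9.40, 8.84 and 8.90 in knockout 1 to 4, and between 9.70 and 9.91 in wild type livers. Differences were negative for 9 of 9 genes within replicates 1 and 2, from -0.72 to -0.28, and for 9 of 9 within replicates 3 and 4, from -1.38 to -0.75. That direction was fixed in advance, since in each gene all knockout values lay below all wild type values. All 9 differences were larger in size in replicates 3 and 4. The limma test of that interaction gave 0 of 9 genes past the threshold, with a lowest adjusted p of 0.99966, and 2 of 9 at an unadjusted p under 0.05. Both knockout livers of replicates 1 and 2 were high in Xist and neither wild type liver was, so in that set of livers genotype and sex cannot be told apart.

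Markers of red cell precursors moved with the 9 genes. Of 15 measured erythroid markers, 14 had lower means and 13 had groups that did not overlap, against 46.7% and 5.02% of all genes. The list was chosen with earlier results of these data known, so these shares are given for scale. The 4 past the threshold were Ank1, Nfe2, Rhag and Ermap, against 0.841% of all genes lower. The groups overlapped in Sptb and Hba-a1. Leaving out knockout 2 raised the count of 4 to 11, leaving out wild type 1 gave 2, and leaving out any liver of replicates 3 or 4 gave 0, while it was 4 when knockout 1 or wild type 2 was left out. Over all genes 5 to 22 passed without a liver of replicates 3 or 4. The median difference of the 15 markers was -0.84. Slc4a1, the anion exchanger of the red cell membrane, differed by -1.05 ± 0.22 (SE, adjusted p 0.0654), Epb42, a protein of the membrane skeleton, by -1.11 ± 0.24 (adjusted p 0.0749) and Ank1, the erythroid ankyrin, fell by 0.92 ± 0.15 (limma adjusted p 0.0391). The single-gene probe set of Hba-a1, the alpha globin, lay below the median of every array at 2.14 and 1.90 and cannot speak for globin, whose bright probe sets name several genes. The mean of the other 14 markers was 8.34, 8.60, 7.90 and 7.99 in knockout 1 to 4 and between 8.99 and 9.18 in wild type livers, the same order of knockout livers as in the mean of the 9 heme and iron genes. In whole liver, fewer cells of a type and less RNA per cell cannot be told apart.

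Set against these markers within each liver, the 9 genes no longer parted the groups. Each gene minus the mean of the 14 markers changed by between -0.18 (Slc25a37) and 0.29 (Fech), with 7 of 9 changes above 0 and overlapping groups in all 9. Over these 9 comparisons the lowest exact permutation p was 0.0571, for Urod and Fech. The mean of the 14 markers itself changed by -0.87 without overlap. Any gene that fell by less therefore had to come out above 0. Taking away a mean that follows genotype can also remove a parting of the groups. The cause of the fall was not tested by this step. With the mean of the 14 markers as a covariate, a fit chosen after the data were seen in which that mean nearly follows genotype, the differences ran from -0.47 ± 0.27 (SE) in Cpox to 0.23 ± 0.64 in Alad, and 0 of the 9 passed in limma, with 0 at an unadjusted p under 0.05. In that fit 0 of all genes passed and 1006 had an unadjusted p under 0.05. Alas2 was at -0.0074 ± 0.29 and Slc25a37 at -0.16 ± 0.35, against SEs of 0.15 and 0.20 without the covariate, so the precision was lower.

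Markers of other cell types had smaller median differences. The hepatocyte markers had a median difference of 0.12 over 11 genes, with list means of 11.83 to 12.03 in knockout and 11.69 to 11.83 in wild type livers. Without overlap 2 of the 11 (Apoa1 and Fgb) were higher and 0 lower, against 3.59% and 5.02% of all genes. Whether a change could show in the brightest hepatocyte markers was not tested. Macrophage markers had a median of 0.13 over 8 genes, neutrophil markers -0.24 over 8, megakaryocyte markers -0.15 over 5, B cell precursor markers -0.24 over 5 and endothelial markers -0.08 over 6. The list means of these 5 overlapped between groups, as did those of hepatocytes, narrowly, with knockout 1 and wild type 2 both at 11.83. In limma 0 genes of these 6 lists passed, against 1.15% of all genes. At an unadjusted limma p under 0.05 there were 3 hepatocyte and 1 macrophage markers higher and 2 B cell precursor markers lower. Over all genes 8.18% were lower at that limit, and 2654 of 18193 passed it in either direction.

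**Figure D3:**
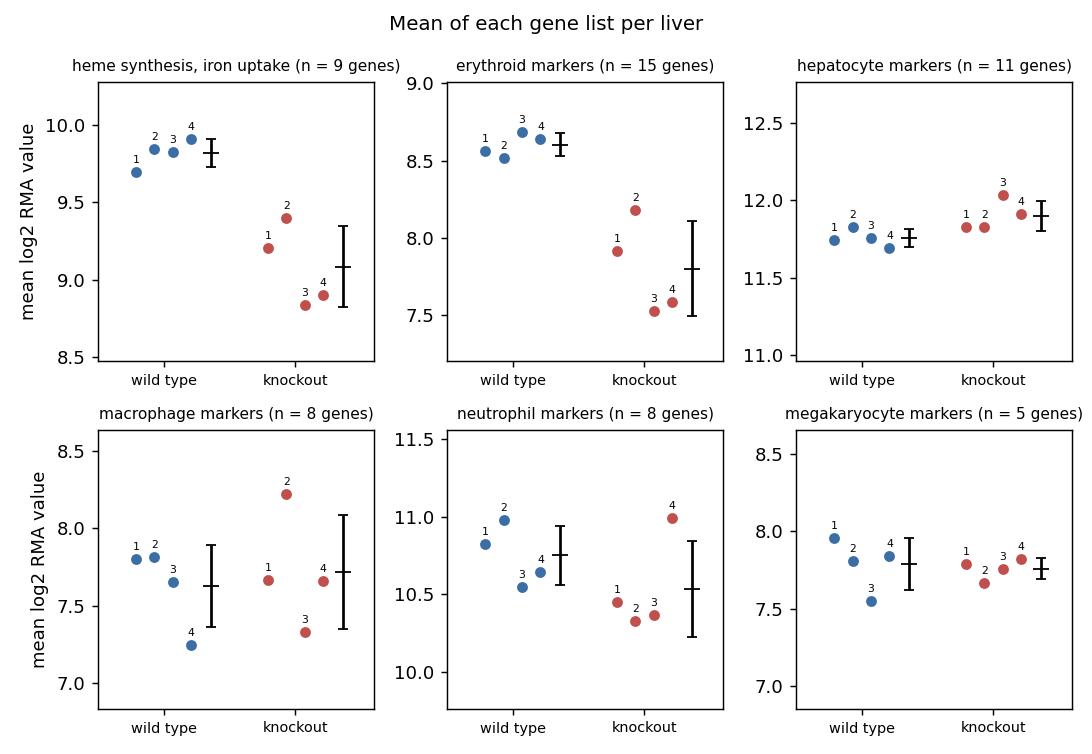
Mean log2 RMA value per liver (y axis, same span in each panel) of the 9 heme and iron genes and of 5 marker lists in wild type (blue) and knockout (red) livers, with the mean and SD of 4 livers in black. The heme and iron genes and the erythroid markers part the groups, with knockout 3 and 4 lowest, while the macrophage, neutrophil and megakaryocyte means overlap.

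Of 32 further genes of heme and iron handling, 3 fell, against 0.841% of all genes lower, and 0 rose in limma. At an unadjusted limma p under 0.05, 11 of the 32 were lower and 5 higher. Over all genes 8.18% were lower at that limit, and 2654 of 18193 passed it in either direction. The 3 that fell past the adjusted threshold were Eif2ak1, Glrx5 and Isca1. Eif2ak1, the kinase that slows translation when heme is short, fell by 0.76 ± 0.14 (SE), with an adjusted p of 0.0441 in limma, from 8.14, 7.83, 8.34 and 8.19 in wild type to 7.14, 7.61, 7.39 and 7.33 in knockout livers. Glrx5, a mitochondrial glutaredoxin of iron-sulfur cluster assembly, fell by 0.59 ± 0.11 (adjusted p 0.0483), from 11.15, 10.88, 11.19 and 11.04 to 10.46, 10.68, 10.43 and 10.34. Isca1, an assembly factor of the same clusters, fell by 0.51 ± 0.10 (adjusted p 0.0499), from 9.73, 9.84, 9.83 and 9.73 to 9.41, 9.38, 9.13 and 9.15. For all 3 genes the groups did not overlap. The count of 3 was 4 without knockout 2, 2 without wild type 2, and 0 without any other single liver. Over all genes 5 to 108 passed in these last fits.

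Slc25a38, the mitochondrial carrier that supplies glycine for the first step, was at 7.002, 7.37, 6.75 and 6.94 in knockout livers and 7.70, 7.72, 7.63 and 7.61 in wild type livers, a difference of -0.65 ± 0.13 (SE) with a limma adjusted p of 0.0586. The groups did not overlap. Hmox1, the heme oxygenase that breaks heme down, was higher in mean in the knockout by 0.56 ± 0.16, with an adjusted p of 0.167. Its values were 7.96, 8.33, 8.56 and 8.56 in knockout and 7.98, 7.63, 7.97 and 7.58 in wild type livers, and knockout 1 fell within the wild type range. Of the 32 genes, 19 had a lower mean, against 46.7% of all genes, and the median difference was -0.09. Without overlap 8 were lower and 2, Slc25a28 and Clpx, higher, against 5.02% and 3.59% of all genes.

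**Figure D4:**
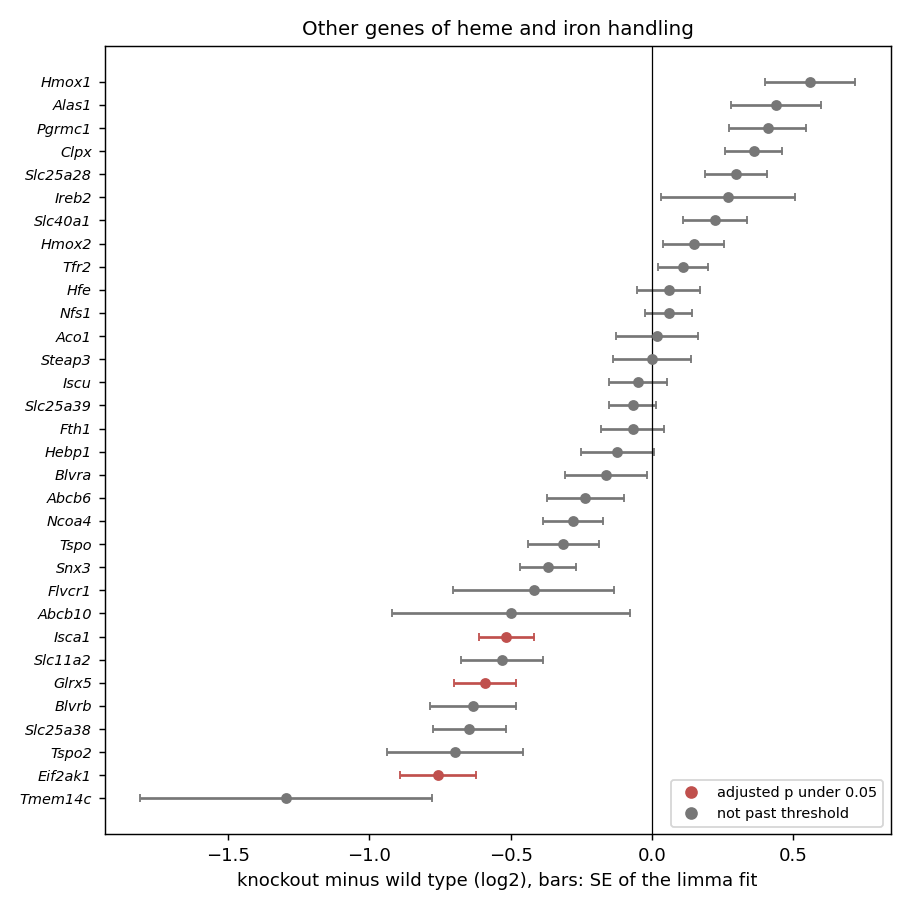
Knockout minus wild type difference (x axis, log2) of 32 other genes of heme and iron handling (y axis, sorted by difference), with SE bars of the limma fit. The 3 genes past the threshold, in red, lie below 0, and Alas1 and Hmox1 lie at the upper end with differences of 0.44 and 0.56.

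The genes whose pattern over the 8 livers was most like that of Alas2 were Pip5k1b, Sass6, Map2k3, Tspan33 and Marchf8. Likeness was the mean absolute difference between log2 values after each gene's own mean was taken away, among 11805 genes above the median level, and it ran from 0.07 for Pip5k1b to 0.10 for Marchf8. Those most like Tfrc were Ranbp10, Hipk2, Ndrg3, Sass6 and Brpf3, at 0.09 to 0.11. All of these had lower means in the knockout. Of them 3 passed in limma, Sass6, Map2k3 and Tspan33, with adjusted p of 0.0496, 0.0441 and 0.0390. Likeness includes the difference between genotypes, so it is a description and not a test.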

How the data were processed

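Total RNA of 8 newborn livers, 4 knockout and 4 wild type, was extracted with Trizol, labelled with biotin and hybridised to Affymetrix arrays, per the labels' protocols. Per the submitters' processing notes the authors used RMA, and the values they deposited were taken as log2 from their range; the sources used here name no software or settings. RMA gives all arrays one distribution, so a change in total mRNA cannot be seen. Arrays give no read depth; their number limits the precision.

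Of 45101 probe sets, 64 array controls were left out of the fit. The annotation pairs 34945 of the others with 1 gene, 932 with several, and does not list 9160; symbols were updated through Entrez identifiers for 34741. Genotypes were compared with limma 3.58.1 in R 4.3.3 (lmFit, eBayes, two-sided, no covariate) and Benjamini-Hochberg adjustment over 45037 probe sets, after a check on simulated data. Single values were compared with exact permutation over livers. The genes, gene lists, naming rule and motif words were chosen with earlier results of these data known. The naming rule took all 9 genes, Alas1, Slc25a28, Slc25a38, Hmox1 and every further heme and iron gene past the threshold. It also took up to 4 erythroid markers in list order, and the 5 genes most like Alas2 and Tfrc. Nfe2, Rhag, Ermap, Sptb, Apoa1, Fgb, Clpx and Tmem14c were named after their values were seen. Entries not found under their own symbol alone are not analysed here. The planned comparison of protein sequences was not run. Alternatives are given in the closing section. Replicate numbers are not tied to litters or batches by any label.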

Additional observations from a re-analysis of the deposited data

Results flagged for a closer look

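Cpox in knockout 1 stood apart from the other knockout livers, at 8.33 against 7.94 to 7.98. Its gap to the nearest of them was 0.894 of the group's range, above Dixon's 95% critical value for 4 samples. This was the 1 such value among 48 groups of 4 looked at over the 24 probe sets, and chance gives about 1 in 20. Without knockout 1 the call on Cpox was kept.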

How the results depend on the processing

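The direction of the 9 differences held in 192 of 198 values over 22 alternatives. The 6 exceptions were Alad (0.15), Ppox (0.035) and Fech (0.0345) with the erythroid mean as a covariate, and the same genes (0.23, 0.051 and 0.031) with that mean taken without Hba-a1. The groups of these genes do not overlap. The direction therefore could not change without 1 liver, in replicates 1-2 or 3-4 alone, or with array weights. Fits without dim probe sets, with an intensity trend, robust variance, the replicate block or replicate sets give the main difference itself. In all of these a kept direction is no sign of stability. The counts of calls moved more. In the order genes of the 9, their probe sets, further heme and iron genes, and erythroid markers, the main counts were 2, 4, 3 and 4. They were 4, 7, 4 and 7 without dim probe sets, where fewer are tested, 0, 2, 1 and 3 after quantile normalization again, 4, 6, 4 and 4 after median centring, 8, 13, 5 and 14 with array weights, 4, 7, 5 and 11 with the mean of 3 Y-linked genes (Eif2s3y, Kdm5d and Uty) as a covariate, 6, 10, 4 and 9 with replicates 1-2 and 3-4 as sets, and 4, 8, 1 and 11 in replicates 3 and 4 alone. All 4 counts were 0 in limma in replicates 1 and 2 alone, with either erythroid mean as a covariate, and with the replicate block, while at an unadjusted p under 0.05 the 9 genes gave 4 in replicates 1 and 2 alone, 0 with either mean and 9 with the replicate block. With that block 9 of all genes passed, against 209 without it, and 3 passed in replicates 1 and 2 alone. The count over all genes was 278 without dim probe sets, 137 after quantile normalization again, 227 after median centring and 545 with array weights. It was 320 with the Y-linked mean, 302 with replicates 1-2 and 3-4 as sets and 264 in replicates 3 and 4 alone. With the mean of a gene's probe sets 4 of the 9 genes, 10 erythroid markers and 383 of all genes passed. Leaving out each liver in turn gave 0 to 4 genes, 0 to 7 probe sets, 0 to 4 further genes and 0 to 11 markers, and 5 to 286 over all genes. The 9 genes gave 0 calls without either of knockout 3 and 4 and without each of wild type 1, 3 and 4 singly, a single call without knockout 1 or wild type 2, and 4 without knockout 2. The causes of these shifts were not tested. Same-numbered livers did not deviate together in every pair, with correlations of -0.0039, 0.069, 0.174 and 0.259. Only knockout 4 correlated best with the wild type liver of its own number, so the numbers were not taken to pair the samples. Knockout 1 correlated best with wild type 2, knockout 2 with wild type 1 and knockout 3 with wild type 4. Each best partner thus came from the same set of replicates, 1-2 or 3-4, a grouping that the main fit does not model.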

Other observations

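Tmem14c, a mitochondrial membrane protein of late heme synthesis, differed by -1.29 ± 0.52 (SE, limma adjusted p 0.356) and was chosen after its values were seen. It was at 8.56, 6.06, 8.29 and 8.48 in knockout livers and 9.95, 8.79, 8.91 and 8.92 in wild type livers. Knockout 2, which was closest to the wild type livers in most of the 9 genes, was the lowest here, and without it the difference was -0.70. Clpx, whose product activates the enzyme of the first step, had all 4 knockout values above the wild type values, with a difference of 0.36 ± 0.10 (adjusted p 0.167).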
